A study of Mus musculus with 15 samples.

Results

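Cytosolic ribosomal proteins form the protein shell of the ribosome outside the mitochondria. The genes studied here are the 85 rows whose symbols name such a protein (Rpl or Rps and a number, with Rpsa and the stalk genes Rplp0, Rplp1 and Rplp2), together with Gm15772, a pseudogene copy of Rpl26, out of 19464 rows in the table. Each symbol had 1 row. They comprised 43 large subunit genes, 31 small subunit genes, 3 stalk genes, 7 paralogs (Rpl3l, Rpl7l1, Rpl10l, Rpl22l1, Rpl39l, Rps4l and Rps27l) and 1 pseudogene.

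The values come from RNA-seq of total RNA from dissected liver, in 15 libraries. Stab1-/- mice, a knock-out of the gene for the scavenger receptor Clever-1, were compared with wildtype mice at 2 weeks of age (n = 4 and 4) and at the fetal stage E17.5 (n = 3 and 4). The labels give 1 mixed strain background, C57BL/6N;129SvJ, for both genotypes and say nothing of littermates, pooling or the sex of the animals, so p-values measure the spread between these samples. Stab1, the targeted gene, lay between 0.862 and 1.54 RPKM (reads per 1000 bases of gene and 1000000 gene reads) in the 2-week Stab1-/- libraries against 7.30 to 11.03 in wildtype, and between 3.60 and 5.23 against 14.9 to 21.8 at E17.5.

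Each ribosome needs 1 copy of nearly every ribosomal protein, and the stalk proteins, which recruit elongation factors, are the main exception. The mRNAs of these proteins begin with a C followed by a run of pyrimidines, the terminal oligopyrimidine or TOP motif, through which the mTOR pathway sets their translation. Ribosomal protein genes have given rise to many processed pseudogenes, copies of the spliced mRNA that were inserted elsewhere in the genome, so that reads from a gene and from its copies can be hard to tell apart. In the fetal liver, growing hepatoblasts share the organ with large numbers of dividing blood precursors.

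The sequences that carry the main finding are those of Rpl26, a large subunit protein near the exit of the peptide tunnel, and Gm15772. In the GENCODE annotation of GRCm38, Rpl26 is a protein-coding gene at chr11:68901583-68906989, whereas Gm15772 is a processed pseudogene at chr5:3236431-3236868, both on the plus strand. The coding sequence of Rpl26 and Gm15772 differed at 2 of 435 bases, an identity of 99.54%, and the longest stretch they shared was 176 bases. The substitutions, counted from 1 at the A of the start codon with the Rpl26 base first, are C177T and T288C. Neither changes an amino acid. The coding sequence around each is shown for both, with the differing base in capitals, because a read within it that covers neither base matches the gene and the copy equally well.
Rpl26 around base 177: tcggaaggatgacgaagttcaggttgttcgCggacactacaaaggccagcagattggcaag
Gm15772 around base 177: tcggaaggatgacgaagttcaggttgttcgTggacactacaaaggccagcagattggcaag
Rpl26 around base 288: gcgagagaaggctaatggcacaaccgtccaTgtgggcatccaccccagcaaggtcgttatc
Gm15772 around base 288: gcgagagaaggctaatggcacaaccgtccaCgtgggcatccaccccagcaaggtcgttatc

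GENCODE holds 5 other copies of the Rpl26 coding sequence with identities between 95.27% and 98.85%, and of all these copies Gm15772 alone has a row in the table.

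In the Stab1-/- libraries almost no reads of the pair lay on Rpl26 and nearly all lay on Gm15772, at both stages. Rpl26 had 14, 6, 10 and 6 uniquely mapped reads in the 4 Stab1-/- libraries at 2 weeks and 445, 426, 366 and 293 in the wildtype libraries. Gm15772 had 1076, 1012, 876 and 897 reads in the same Stab1-/- libraries and 409, 392, 415 and 285 in wildtype. The groups did not overlap for either gene, and their order was opposite.

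At E17.5, Rpl26 had 12, 9 and 32 reads in Stab1-/- libraries and 1410, 1036, 168 and 713 in wildtype. Gm15772 had 1091, 1036 and 1599 reads in Stab1-/- libraries and 339, 945, 1177 and 722 in wildtype. Every wildtype library again had more Rpl26 reads than every Stab1-/- library, but the wildtype libraries differed widely among themselves, and for Gm15772 wildtype replicate 3 lay within the Stab1-/- range. The library with most Rpl26 reads, wildtype replicate 1, had the fewest Gm15772 reads of its group, and the one with fewest, replicate 3, had the most.

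Gm15772 took 98.7% to 99.4% of the summed reads of the pair in the Stab1-/- libraries at 2 weeks and 47.9% to 53.1% in wildtype (difference of the means 49.5 percentage points, exact two-sided permutation test p = 0.0286, the smallest that 4 against 4 can give). At E17.5 the share was 98.0% to 99.1% in Stab1-/- and 19.4%, 47.7%, 87.5% and 50.3% in wildtype (exact two-sided permutation test p = 0.0571, the smallest that 3 against 4 can give). Adjusted over the 8 exact tests made on the pair, these became 0.0572 and 0.0761.

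**Figure D1:**
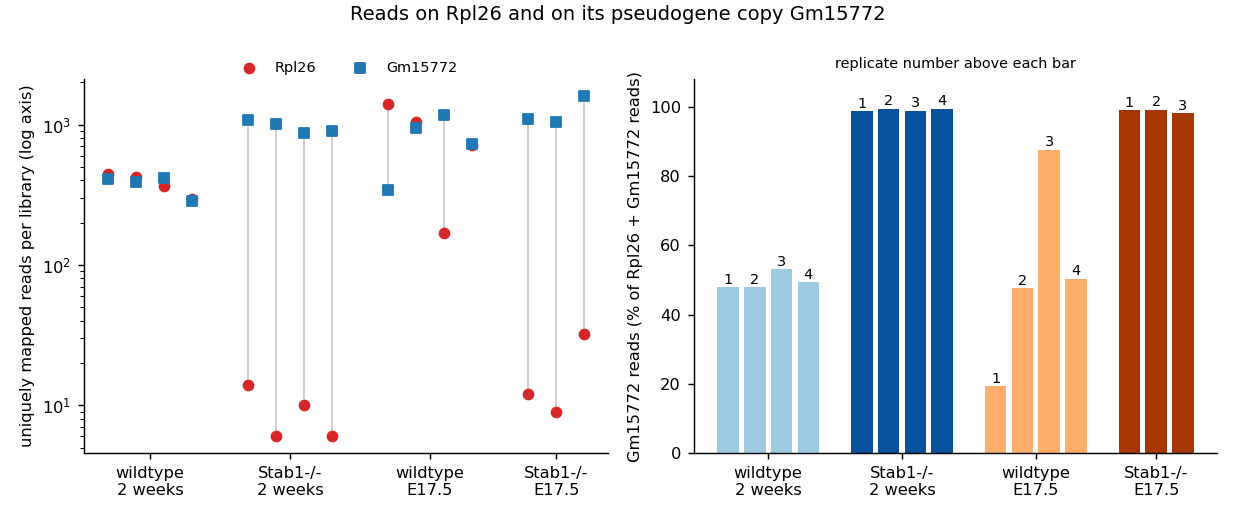
Uniquely mapped reads on Rpl26 (circles) and Gm15772 (squares) in each library on a log axis (left), with a grey line joining the values of a library, and the percent of their summed reads that lies on Gm15772 (right, replicate number above each bar). All 7 Stab1-/- libraries stand at 98.0% or more, the 4 wildtype libraries at 2 weeks between 47.9% and 53.1%, and the wildtype libraries at E17.5 spread from 19.4% to 87.5%.

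In edgeR's quasi-likelihood test across all genes, Rpl26 was lower in Stab1-/- liver by a log2 fold change of -5.42 ± 0.23 (SE) at 2 weeks (adjusted p = 1.8e-07). At E17.5 its log2 fold change was -5.47 ± 0.78 (edgeR adjusted p = 0.0161). This call was lost when Stab1-/- replicate 1, 2 or 3 or wildtype replicate 2 was left out, with log2 fold changes between -6.21 and -5.18 and edgeR adjusted p between 0.059 and 0.070. Gm15772 was higher by 1.34 ± 0.12 at 2 weeks (edgeR adjusted p = 0.00019), and its difference of 0.73 ± 0.32 at E17.5 did not pass the test (edgeR adjusted p = 0.383). The difference between the stages in the genotype effect was -0.09 ± 1.13 for Rpl26 and -0.64 ± 0.37 for Gm15772, and neither passed (edgeR adjusted p = 0.975 and 0.313).

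Between E17.5 and 2 weeks, Gm15772 changed by -0.68 ± 0.28 in wildtype (edgeR adjusted p = 0.0482), and its value of -0.06 ± 0.14 in Stab1-/- liver did not pass (edgeR adjusted p = 0.707). Rpl26 was at -0.73 ± 0.44 and -0.66 ± 0.48, and neither passed (edgeR adjusted p = 0.158 and 0.234).

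With the reads of the pair summed into 1 row, no difference between the genotypes was called. The summed row had a log2 fold change of 0.34 at 2 weeks (edgeR adjusted p = 0.13) and -0.29 at E17.5 (edgeR adjusted p = 0.52). Per 1000000 gene reads, the sum was 97.8 ± 8.68 (SD, n = 4) in Stab1-/- and 72.9 ± 13.1 (n = 4) in wildtype liver at 2 weeks, a ratio of 1.34. The exact two-sided permutation test gave p = 0.0286, the smallest possible, which became 0.0572 when adjusted over the 8 exact tests on the pair. At E17.5 it was 120 ± 29.8 (n = 3) and 152.2 ± 29.99 (n = 4, exact two-sided permutation test p = 0.229).

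The part of the Rpl26 gene model with reads, which the authors deposited as a percent coverage, was also smaller in Stab1-/- libraries. Few reads can cover only a small part of a model, so this is not independent of the read counts. Reads covered 29.3% to 37.1% of the Rpl26 model in Stab1-/- and 60.1% to 64.0% in wildtype libraries at 2 weeks. The corresponding ranges at E17.5 were 19.9% to 43.6% and 58.5% to 62.1%, and wildtype replicate 3, with 168 reads, had 58.5%. Coverage of the Gm15772 model stayed between 50.1% and 53.4% in all 15 libraries. Of the genes annotated within 1 Mb of Rpl26, 2 of 39 tested were called at 2 weeks (Ntn1 and Polr2a, named after their values were seen) and 0 of 46 at E17.5. Within 1 Mb of Gm15772, 0 of 9 and 0 of 10 were called. Of all genes tested, 340 of 12716 were called at 2 weeks and 49 of 13388 at E17.5, so counts from so few neighbours do not set either locus apart. Whether the animals carried different alleles at either locus was not tested.

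Ribosomal protein reads made up a larger part of the 2-week Stab1-/- libraries than of the wildtype ones. The 85 genes held 2.77%, 2.65%, 2.42% and 2.43% of all gene reads in Stab1-/- liver at 2 weeks and 2.07%, 2.14%, 1.90% and 1.52% in wildtype, without overlap. At E17.5 the shares were 3.43%, 3.32% and 3.71% in Stab1-/- and 3.93%, 3.97%, 3.57% and 3.44% in wildtype, which overlapped. Both fetal groups stood above both 2-week groups.

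**Figure D2:**
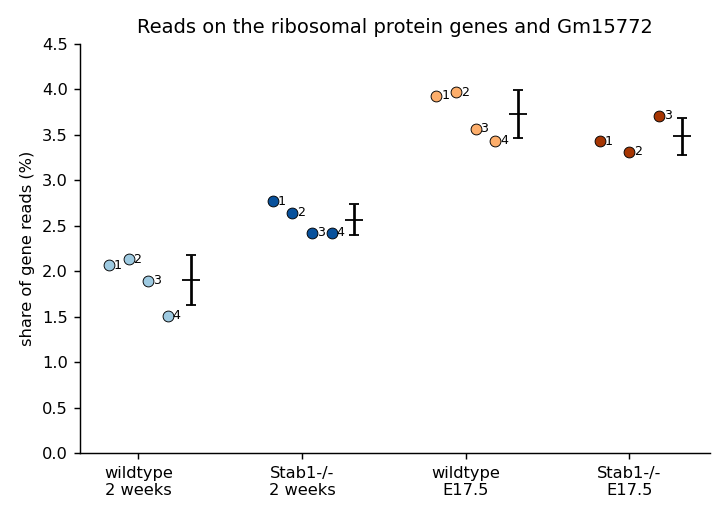
Share of all gene reads on the 85 members in each library (points, with replicate numbers), by group, with the mean and SD beside the points. The 2-week wildtype libraries lie lowest (mean 1.90%), then the 2-week Stab1-/- libraries (2.57%), and the E17.5 libraries highest (3.73% in wildtype, 3.49% in Stab1-/-).

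The 10 genes with most reads in each library together took 19.0% to 23.6% of the reads in 2-week Stab1-/- libraries and 24.4% to 28.7% in wildtype. Without the 21 genes that were among them, the family held 3.25% to 3.56% against 2.22% to 2.95%. The part of these abundant genes in the difference between the genotypes was not tested. In whole liver, more cells of a type and more RNA per cell cannot be told apart.

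Gene by gene, most members were slightly higher in Stab1-/- liver at 2 weeks. In the TMM-scaled fit, 76 of 82 tested members were higher in Stab1-/- liver and 6 lower, with a median log2 fold change of 0.23, against -0.01 over all 12716 genes tested. With each library's trend with listed gene length removed, the median was 0.06, and genes outside the family listed at under 1000 bases had a median of 0.15 (n = 791), against -0.03 for longer ones (n = 11843). The middle part of the family, from the first to the third quartile, spanned 0.11 to 0.35. Only 3 members were called higher (background 0.936% of all genes tested) and 1 lower (background 1.74%). The remaining members, Rpl3l, Rpl10l and Rpl39l, had too few reads to be tested. DESeq2 called 22 members, 21 higher and 1 lower, including the 4 called here. The backgrounds above are those of edgeR, and no share of all genes is given for the DESeq2 count.

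In RPKM as deposited, the 4 Stab1-/- values lay above the 4 wildtype values for 57 of the 82 members, or 69.5%, against 10.4% of all genes tested. They lay below for Rpl26 alone, against 4.5% of all genes. At E17.5 the values lay above for 1 of 81 members (Rps4x, background 2.91%) and below for 2 (Rpl26 and Rpl37, background 9.3%). Members share their libraries, so these counts describe the libraries and are not independent observations.

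The members that were called at 2 weeks beside the Rpl26 pair were Rpl15 and Rpl5, both large subunit proteins. Rpl5 carries a small ribosomal RNA into the ribosome and, when free, binds the p53 inhibitor Mdm2. Rpl5 stood at 473, 384, 358 and 329 RPKM in Stab1-/- libraries and at 260, 265, 184 and 131 in wildtype, a log2 fold change of 0.79 ± 0.18 (edgeR adjusted p = 0.0455). Rpl15 stood at 364, 277, 264 and 258 against 196, 199, 151 and 114, a log2 fold change of 0.73 ± 0.16 (edgeR adjusted p = 0.033). The groups did not overlap for either gene, and wildtype replicate 4 was the lowest library for both. Both calls were lost when any 1 of the 4 Stab1-/- libraries or wildtype replicate 3 was left out (edgeR adjusted p between 0.058 and 0.14). That of Rpl5 was also lost with library totals (edgeR adjusted p = 0.053) and with limma (adjusted p = 0.057 and 0.054).

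**Figure D3:**
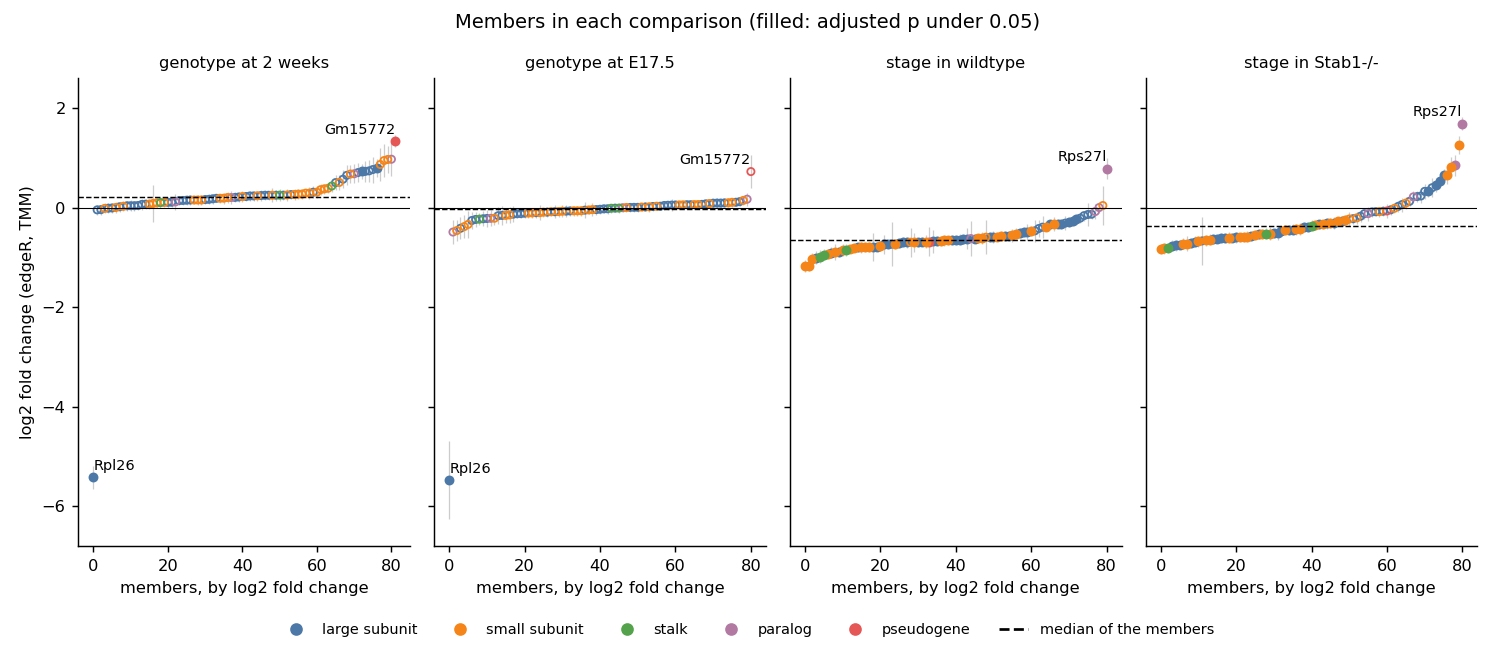
Log2 fold change of every tested member with its SE (grey) in the 4 comparisons, ordered within each panel and coloured by class, with filled points for an edgeR adjusted p under 0.05 and a dashed line at the members' median (0.23, -0.03, -0.65 and -0.36). Rpl26 lies near -5.4 in both genotype panels, apart from all others, and Rps27l is the highest member in both stage panels.

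Larger but more variable differences at 2 weeks were seen in a group of members whose values fell steeply in some wildtype libraries. Rps27a, which is translated as a fusion of ubiquitin and a small subunit protein, stood at 1344, 1032, 884 and 848 RPKM in Stab1-/- and at 702, 734, 405 and 174 in wildtype (log2 fold change 0.95 ± 0.33, edgeR adjusted p = 0.12). Rps7, a small subunit protein that can also bind Mdm2, stood at 1116, 797, 811 and 629 against 583, 521, 321 and 189 (0.97 ± 0.27, edgeR adjusted p = 0.0761). Rpl22l1, the paralog that can take the place of Rpl22, stood at 153, 93.4, 100 and 86.5 against 77.5, 73.1, 41.4 and 15.9 (0.98 ± 0.34, edgeR adjusted p = 0.124). The groups did not overlap for any of the 3 genes, and wildtype replicate 4 was the lowest library each time.

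In fetal liver, the members showed no common shift between genotypes. Of 81 tested members, 35 were higher and 46 lower in Stab1-/- liver, with a median of -0.03 against 0.00 over all 13388 genes. No member was called higher (background 0.194%) and Rpl26 was the only one called lower (background 0.172%). At an unadjusted p under 0.05, edgeR gave 1 higher (Gm15772) and 1 lower member, against 1728 of all 13388 genes in either direction. DESeq2 also called 1 member. The lowest after Rpl26 were Rpl22l1 at -0.49 ± 0.23 and Rps27a at -0.46 ± 0.22 (edgeR adjusted p = 0.414 and 0.409).

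The genotype effect at E17.5 minus that at 2 weeks was below 0 for 74 of 82 members, with a median of -0.28 against -0.01 over all genes. None was called by edgeR (background 1.81% in either direction). Of the 82 members, 34 had an unadjusted edgeR p under 0.05, all of them lower, against 3215 of all 13885 genes in either direction. The lowest values were those of Rpl22l1 (-1.49 ± 0.49, edgeR adjusted p = 0.0966), Rps27a (-1.43 ± 0.47, 0.0955) and Rps7 (-1.38 ± 0.41, 0.0786), and the highest was that of Rpl28, at 0.10 ± 0.15. DESeq2 called 12 members here, and limma 3 or 4 depending on the pseudocount. No share of all genes is given for these counts, and the background above is that of edgeR. The members' median listed length was 710 bases against 2547 for the table. In the fit that removed each library's trend with length, their median for this difference was -0.02. Without that step, members listed at under 1000 bases had a median of -0.28 (n = 63) and longer ones -0.39 (n = 19). Genes outside the family had medians of -0.23 (n = 902) and 0.01 (n = 12901). The part of gene length in the members' values was not tested. Of 8 granulocyte markers 3 were called lower in this difference too, with a median of -0.84 over the 8, and their part in the members' values was not tested.

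Between the stages the family moved most. In wildtype liver, 65 of 81 tested members were lower at 2 weeks than at E17.5 (background 37% of all genes tested) and 1 was higher (background 34.9%). The median log2 fold change was -0.65 against -0.01 over all 13369 genes. In Stab1-/- liver, 49 members were lower (background 36.8%) and 9 higher (background 35.7%), with a median of -0.36. Scaled by library totals in place of TMM, the median of all genes moved to -0.38 in wildtype and -0.24 in Stab1-/- liver and that of the members to -1.01 and -0.58. With the trend with gene length removed, the members' medians were -0.92 and -0.91. Cell type markers changed with age as well: the summed RPKM of 12 erythroid markers (Hba-a1, Slc4a1 and others) fell from 25740 to 29130 in wildtype E17.5 libraries to 475 to 1354 at 2 weeks, all 12 markers called lower, and that of 11 hepatocyte markers rose from 54760 to 61500 to between 86250 and 104900. Their part in the family's change was not tested.

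The small subunit proteins Rps15a and Rps12 had the largest falls in wildtype. Rps12 stood at 1418, 1466, 1241 and 1249 RPKM at E17.5 and at 470, 526, 485 and 390 at 2 weeks (log2 fold change -1.16 ± 0.11, edgeR adjusted p = 1.3e-06). Rps15a changed by -1.17 ± 0.12 and Rpsa, also known as the laminin receptor, by -1.04 ± 0.13 (edgeR adjusted p = 3.2e-06 and 1.3e-05). In each of these the stages were far apart and did not overlap.

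All 3 stalk genes fell between E17.5 and 2 weeks in both genotypes. Rplp0, the base of the stalk, changed by -0.98 ± 0.13 in wildtype and -0.52 ± 0.11 in Stab1-/- liver (edgeR adjusted p = 2.2e-05 and 0.00116). Rplp2 changed by -0.94 ± 0.10 and -0.81 ± 0.10 (edgeR adjusted p = 5.3e-06 and 1.9e-05), and Rplp1 by -0.85 ± 0.13 and -0.36 ± 0.12 (edgeR adjusted p = 7.1e-05 and 0.0178). Rplp1 had the highest level per length of all members, 1233 RPKM averaged over the 15 libraries. None of the 3 was called between genotypes: at 2 weeks Rplp0 differed by 0.44 ± 0.13, Rplp1 by 0.26 ± 0.12 and Rplp2 by 0.11 ± 0.10 (edgeR adjusted p = 0.0799, 0.22 and 0.574).

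The 4 tested paralogs differed among themselves. Rpl22l1 was close to the members' median in wildtype (-0.62 ± 0.35, edgeR adjusted p = 0.131) and rose in Stab1-/- liver (0.85 ± 0.22, edgeR adjusted p = 0.00421). Rps27l, a p53-induced relative of Rps27, stood at 209, 240, 170 and 145 RPKM in wildtype E17.5 libraries and at 337, 312, 228 and 159 at 2 weeks. In Stab1-/- liver it stood at 156, 144 and 176 at E17.5 and at 565, 417, 382 and 401 at 2 weeks. It was the 1 member called higher at 2 weeks in wildtype (0.79 ± 0.21, edgeR adjusted p = 0.00453) and the highest in Stab1-/- liver (1.69 ± 0.14, edgeR adjusted p = 8.4e-07), with no overlap of the stages in the latter only. Scaled by library totals, the wildtype value was 0.44 (edgeR adjusted p = 0.094). Rpl7l1, a relative of Rpl7 with a part in ribosome assembly, changed by 0.01 ± 0.11 in wildtype, and by -0.35 with library totals (edgeR adjusted p = 0.016). Rps4l changed by -0.07 ± 0.14. Rpl3l, typical of muscle, and Rpl10l and Rpl39l, typical of testis, had at most 5, 1 and 9 reads in any library.

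To find members that leave the common shift, the fits were repeated with libraries scaled to the family itself, so that a value of 0 means moving with the other members. Calls were still adjusted over all genes tested. At 2 weeks 4 members were above the family, Gm15772 (1.13 ± 0.12), Rps7 (0.79 ± 0.24), Rpl5 (0.60 ± 0.17) and Rpl15 (0.53 ± 0.15) (edgeR adjusted p = 0.00017, 0.0468, 0.0338 and 0.0345, background 0.763%), and 1 was below it, Rpl26 (-5.62 ± 0.23, edgeR adjusted p = 3.6e-09, background 11.9%). Without any 1 of the Stab1-/- libraries, or without wildtype replicate 3 or 4, 2 calls were made, whereas 13 were made without wildtype replicate 1 and 10 without replicate 2. No share of all genes is given for these refits, so a change in the members cannot be told from a change over all genes. At E17.5 no member was above the family (background 0.217%, with 1 at an unadjusted p under 0.05). Rpl26 was below it (-5.44 ± 0.70, edgeR adjusted p = 0.00623, background 0.209%), a call kept without any 1 library (-6.14 to -5.10). In either direction, 4 of 81 members had an unadjusted edgeR p under 0.05, against 1350 of all 13388 genes.

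Between the stages in wildtype, 23 members were off the common shift (background 76.6% in either direction). Above the family's fall were 15 of them, as were 7904 of all 13369 genes tested, and 8 were below it, as were 2342 genes. Those farthest above were Rps27l (1.42 ± 0.18), Rpl7l1 (0.65 ± 0.13), Rps4l (0.58 ± 0.17), Rpl10 (0.52 ± 0.12), which joins the large subunit late in its assembly, and Rpl13a (0.49 ± 0.19). Farthest below were Rps15a (-0.53 ± 0.12), Rps12 (-0.52 ± 0.11), Rpsa (-0.40 ± 0.12), Rpl36a (-0.36 ± 0.12) and Rplp0 (-0.34 ± 0.12). With each library's trend with gene length removed, Rps15a was at -0.10 and was no longer called (edgeR adjusted p = 0.53). Its listed length of 5158 bases is the longest of the members. Of 4 tested paralogs, 3 were above and none below, and of the 3 stalk genes 2 were below.

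In Stab1-/- liver, 24 members were above the family (background 46.9%) and 23 below (background 24.8%). Without Stab1-/- E17.5 replicate 1 or 2, 31 calls were made in place of 47. No share of all genes is given for the refits in this paragraph. Rps27l (2.04 ± 0.14), Rps14 (1.61 ± 0.17), Rpl22l1 (1.21 ± 0.22), Rps27a (1.18 ± 0.18) and Rps7 (1.02 ± 0.18) stood farthest above. Rps4x, the X-linked copy of Rps4 (-0.48 ± 0.10), Rps12 (-0.48 ± 0.10), Rplp2 (-0.47 ± 0.09), Rpl32 (-0.42 ± 0.10) and Rpl21 (-0.41 ± 0.10) stood farthest below. On the scale of all genes, 9 members rose while the family fell (3 with each library's trend with gene length removed), among them Rps14 (1.26 ± 0.18), Rpl13a (0.65 ± 0.13), Rpl22 (0.54 ± 0.12), Rpl34 (0.45 ± 0.14) and Rpl15 (0.34 ± 0.13) (edgeR adjusted p = 6.7e-05, 0.00087, 0.00183, 0.0107 and 0.0357). With the length trend removed, Rpl34 turned to -0.18 (edgeR adjusted p = 0.19) and Rpl15 was at 0.12 (edgeR adjusted p = 0.43). Both calls were also lost with library totals (edgeR adjusted p = 0.17 and 0.43), with limma (adjusted p = 0.14 and 0.44) and with all 15 libraries in 1 fit (edgeR adjusted p = 0.076 and 0.07). That of Rpl15 was lost as well without Stab1-/- replicate 1 or 2 of either stage (edgeR adjusted p between 0.053 and 0.11).

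The members above the family in Stab1-/- liver also varied together within groups. Rps14 stood at 929, 970, 541 and 206 RPKM in the 2-week wildtype libraries, at 1584, 1288, 1135 and 1096 in 2-week Stab1-/-, at 928, 1153, 689 and 479 in E17.5 wildtype and at 657, 445 and 765 in E17.5 Stab1-/- libraries. Relative to the family, 2-week Stab1-/- replicate 1 held the highest value of its group in 20 of the 24 members, 2-week wildtype replicate 4 the lowest in 18, and E17.5 wildtype replicate 2 the highest in 20. The median of the 24 members ran from -0.42 (log2) to 0.21 among the 2-week wildtype libraries and from 0.22 to 0.67 among the 2-week Stab1-/- libraries. Since these members were chosen by the stage difference in Stab1-/- liver, the greater height of the 2-week Stab1-/- libraries is no finding. The 23 members below the family ranged less within groups, with library medians from -0.14 to 0.04 in 2-week wildtype and from -0.18 to -0.09 in 2-week Stab1-/- liver.

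**Figure D4:**
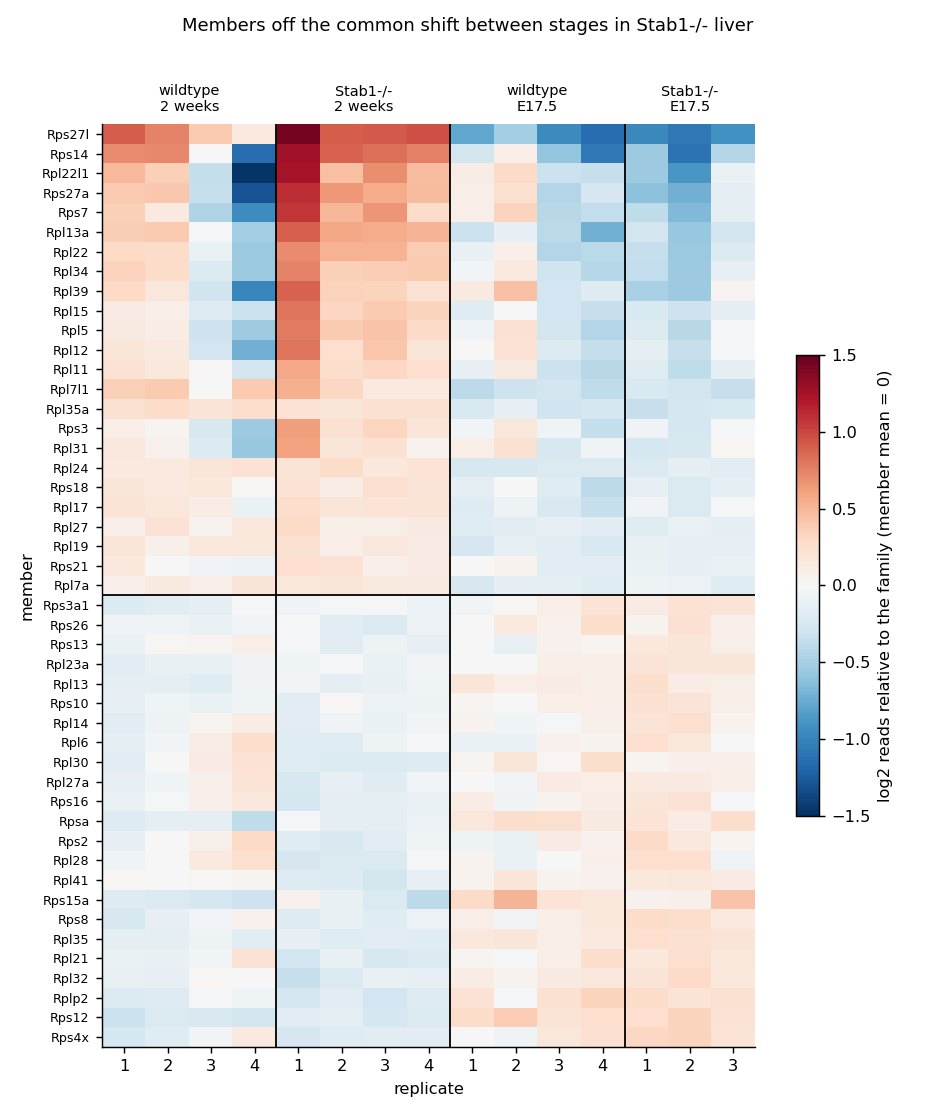
Reads of the 47 members called off the common shift between stages in Stab1-/- liver, per library and relative to the family (log2, each member's mean set to 0), with the 24 above the family over the line and the 23 below it under the line, ordered by their departure. Since the rows were chosen by the stage difference in Stab1-/- liver, that difference is no finding here. Within their own groups, the columns of 2-week wildtype replicate 4 and 2-week Stab1-/- replicate 1 stand apart for the upper members.

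Start-site sequences were compared because the TOP motif is what ribosomal protein mRNAs have in common. RefSeq (GRCm38.p6) windows were found for 63 of the 85 members. A C followed by at least 5 further C or T, starting within 20 bases of the listed start on the sense strand, was present for 42 of them (66.67%), in 45 of 75 windows (60.0%), against 31.95% of all 32851 windows of the same length. Shown are 2 members above the family in Stab1-/- liver (Rpl22l1 and Rpl5) and 2 below it (Rplp2 and Rps2, the latter chosen after its values were seen), all on the plus strand, from 30 bases before the listed start to 20 from it, with the run in capitals.
Rpl22l1, chr3:28805478-28805527: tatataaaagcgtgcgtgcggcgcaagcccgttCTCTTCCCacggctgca
Rpl5, chr5:107900498-107900547: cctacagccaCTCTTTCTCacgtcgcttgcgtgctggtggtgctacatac
Rplp2, chr7:141447621-141447670: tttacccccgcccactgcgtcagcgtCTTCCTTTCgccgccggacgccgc
Rps2, chr17:24720033-24720082: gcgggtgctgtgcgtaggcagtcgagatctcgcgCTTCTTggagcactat

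Every window shown holds the run, so these windows do not compare the sides of the common shift. The run was absent from the windows of Rps7 and Rpl22, above the family, and of Rps4x, below it. In Rpl5 the whole run lies before the listed start. The listed starts may differ from those used in liver.

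Levels between genes rest on uniquely mapped reads and so can depend on the number of near-identical genes. These were counted as other GENCODE genes with at least 95% identity over at least 80% of the coding sequence. Rps27, picked after its values were seen, had 3 to 13 reads in every library, with 4 such genes. By number of such genes, the median over members was 304 RPKM for the 9 with none, of which 4 are paralogs, 425 for the 32 with 1 to 4, 532 for the 27 with 5 to 9 and 450 for the 17 with 10 or more. Rplp1 and Rpl41, a very short basic protein, averaged 1233 and 963 RPKM, and Rpl7l1 and Rps4l 33.1 and 25.2.

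Few other genes of the pathway were called between genotypes, as were few of all genes. Of all genes tested, 340 of 12716 were called at 2 weeks, 49 of 13388 at E17.5 and 251 of 13885 for the difference between the stages. Few calls in lists of this size therefore do not set the pathway apart. No gene of 13 translation elongation and TOP mRNA genes, 34 tested initiation factors, 60 ribosome biogenesis factors, 15 genes of RNA polymerase I transcription, 76 mitochondrial ribosomal proteins or 4 ribosomal protein genes outside the name rule was called at 2 weeks, with medians of 0.13, 0.13, 0.10, 0.01, 0.10 and 0.11. Of 24 genes for mTOR and p53 control, Myc, a transcription factor that drives ribosome production, was lower at 2 weeks in Stab1-/- liver (-0.75 ± 0.16, edgeR adjusted p = 0.034). At E17.5 Rrp12, a factor for export of ribosome precursors, was the 1 gene called in these lists (0.81 ± 0.13, edgeR adjusted p = 0.029). In the difference between the stages, Larp1, which binds TOP mRNAs, was higher (0.74 ± 0.15, edgeR adjusted p = 0.031), and the mitochondrial Mrpl33 and Mrps24 were lower (-0.73 ± 0.17 and -0.63 ± 0.15, edgeR adjusted p = 0.038 and 0.049).

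The stage counts of these lists stand beside 37% of all genes lower and 34.9% higher in wildtype. There, 46 of 60 biogenesis factors were lower at 2 weeks and 3 higher, with a median of -0.68, led by Nop56 (-1.75 ± 0.17) and Dkc1 (-1.72 ± 0.11), components of the particles that modify ribosomal RNA (edgeR adjusted p = 1.8e-06 and 3.9e-08). Elongation and TOP genes were lower in 9 and higher in 1 of 13, with Pabpc1, the poly(A)-binding protein, at -2.01 ± 0.12 (edgeR adjusted p = 1.3e-08), and genes of RNA polymerase I in 9 and 1 of 15, with Taf1c at -1.39 ± 0.17 (edgeR adjusted p = 9.9e-06). Closer to the share of all genes lower were the initiation factors, with 15 of 34 lower, and the mTOR and p53 genes, with 11 of 24. Among the latter, Myc was at -2.49 ± 0.12 (edgeR adjusted p = 3.8e-09). Higher were 4 of the 34 and 6 of the 24, both below the share of all genes. Of the 4 ribosomal protein genes outside the name rule, 1 was lower, Gnb2l1 (-0.82 ± 0.12, edgeR adjusted p = 6.5e-05), with a median of -0.09. The mitochondrial ribosomal proteins went the other way: 58 of 76 were higher at 2 weeks and 1 was lower, with a median of 0.52, led by Mrpl14 (1.70 ± 0.10, edgeR adjusted p = 1.7e-08). In Stab1-/- liver the corresponding counts were 38 lower and 5 higher for biogenesis factors and 1 lower and 66 higher for mitochondrial ribosomal proteins. Genes outside the family listed at under 1000 bases had a median of 0.42 in wildtype and 0.66 in Stab1-/- liver, opposite in sign to the equally short cytosolic members (-0.66 and -0.35).

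Markers of other cells were compared between genotypes beside the family's 2-week difference. The 11 hepatocyte markers summed to 70010 to 87680 RPKM in Stab1-/- and 86250 to 104900 in wildtype libraries, the 12 erythroid markers to 790.4 to 1636 and 475 to 1354, and the 8 granulocyte markers to 190 to 422 and 31.9 to 148. The 11 Kupffer and macrophage markers summed to 555 to 720 and 419 to 593. Of these 4 sums only those of the granulocyte markers did not overlap, and none of the markers tested in these lists was called at 2 weeks. The granulocyte sums were also apart at E17.5, in the opposite direction (3708 to 4018 in Stab1-/- and 5243 to 8435 in wildtype). Of 8 endothelial markers Kdr was called lower (-0.44 ± 0.10, edgeR adjusted p = 0.048), with sums of 171 to 180 and 163 to 195. B lymphocyte and intestine markers summed to at most 14.6 and 160 RPKM at 2 weeks and overlapped, whereas pancreas markers did not, at 12.1 to 15.1 in Stab1-/- and 7.79 to 11.6 in wildtype. At E17.5 pancreas markers reached 3005 RPKM in 1 wildtype library and 14.0 in the lowest, and intestine markers reached 566 RPKM in 1 Stab1-/- library, against a median of 194. Their part in the family's differences was not tested.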

How the data were processed

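RNA was isolated from mouse liver and sequenced at BGI on Illumina libraries. In 1 table the authors deposited a read count for every gene and library (uniquely mapped reads), an RPKM value and a coverage percent of the gene model. The RPKM values are reads per 1000 bases of listed length and 1000000 gene reads of the library, as deposited. The aligner, genome build, annotation and use of strand are not given in the sources used here. Gene reads per library ran from 9658886 to 10963663. Counting only uniquely mapped reads can lower the level of genes with near-identical copies, and strand use being unknown, overlapping genes cannot be told apart.

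Groups were taken from the labels. The main test was the quasi-likelihood test of edgeR 4.0.16, run in R 4.3.3 (TMM scaling, genes kept by filterByExpr at 10 reads and a total of 15, Benjamini-Hochberg adjustment over all genes tested, calls at an adjusted p under 0.05), on the libraries of each comparison alone, and on all 15 for the difference between stages. Fold changes are Stab1-/- over wildtype, or 2 weeks over E17.5. To find members off the common shift, libraries were scaled by the median of ratios over the members. Exact two-sided permutation tests used scipy 1.17.1. DESeq2 1.42.0, limma 3.58.1 on log2(RPKM + 0.1) and log2(RPKM + 1), other scalings and filters, GC-content and gene-length offsets, a replicate block and leaving out each library were alternatives. The difference between stages scaled to the family was chosen after seeing the data. Coding sequences were compared with blastn 2.17.0 to GENCODE vM21 transcripts. The scripts were tested on simulated data. No 2 libraries of a group agreed within sampling noise (chi-square per degree of freedom at least 5.409).

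The members and all gene lists were chosen with earlier results of these data known, and 1 marker gene of these lists is not reported here. Always named were Stab1, Rpl26, Gm15772, the paralogs, the stalk genes, Rpsa, Rps27a and Rps7. Per comparison, up to 10 called members and up to 5 members off the common shift in each direction were named by size, with the highest and lowest member, and up to 3 called genes of each other list.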

Additional observations from a re-analysis of the deposited data

Results flagged for a closer look

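A single library of a group of 4 stood far from its other 3 libraries in 7 of the 114 group values examined, and chance alone does so in about 1 in 20 groups. Gm15772 was at 49.6 RPKM in wildtype replicate 4 at 2 weeks, against 72.5 to 73.3 in the others. Rpl35 was at 243 RPKM in the same library, against 309 to 319. Rpl32 was lowest, at 397 RPKM, in Stab1-/- replicate 1 at 2 weeks (449 to 458 in the others) and highest, at 926 RPKM, in wildtype replicate 1 at E17.5 (856 to 867). Rpl7l1 was at 33.0 RPKM in wildtype replicate 4 at E17.5, against 36.5 to 37.0. Rpl3l and Rpl39l were at 0.0673 and 0.117 RPKM in wildtype replicate 3 at 2 weeks, from 1 read each, and at 0 in the other 3 libraries.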

How the results depend on the processing

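The 2-week calls of Rpl26 and Gm15772 were kept under every alternative that tested them as separate genes, and the row of their summed reads was not called (0.338, edgeR adjusted p = 0.13). The number of members called at 2 weeks, 4, was 22 with DESeq2, 7 without the filter on low counts, 11 with all libraries in 1 fit, 2 with the reads of Rpl26 and Gm15772 summed, and 2 to 7 without single libraries. Shares of all genes called are not given for the alternatives in this section. The members' median was 0.0562 with the gene-length offset. Off the common shift, 5 members became 8 when scaled by the members' summed reads (4 higher and 4 lower) or with the GC-content offset, 3 with the gene-length offset, and 2 to 13 without single libraries. At E17.5 the 1 call became 0 with summed reads and 0 to 1 without single libraries, with Rpl26 between -6.21 and -5.09. The replicate block gave 22 members at 2 weeks (21 with the GC-content offset), 16 off the common shift, 0 at E17.5, where Rpl26 was at -5.24 (edgeR adjusted p = 0.064), and 19 for the difference between stages (19 with the GC-content offset). The labels do not say what the numbers share. Same-numbered libraries correlated at 0.023 to 0.204 at 2 weeks, where those of different number ran from -0.258 to 0.283. At that age Stab1-/- replicates 3 and 4 correlated best with the wildtype library of their own number (0.191 and 0.146). Replicate 1 correlated best with wildtype replicate 2 (0.283), and replicate 2 with wildtype replicate 4 (0.074). At E17.5 same-numbered libraries correlated at -0.178 to 0.0004 and the others at -0.0995 to 0.262. Whether the numbers mark pairs was not tested.

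The stage median was -1.01 (library totals), -0.92 (gene-length offset) and -1.01 (limma, both pseudocounts) in wildtype, and -0.58, -0.91 and -0.57 (limma, both pseudocounts) in Stab1-/- liver. For the difference between stages, 0 calls became 12 with DESeq2, 2 with library totals, 3 and 4 with limma and 0 to 4 without single libraries. Its median was -0.0196 with the gene-length offset and 0.0108 scaled to the family. The 47 members off the shift between stages in Stab1-/- liver were 31 to 47 without single libraries, 18 higher and 30 lower scaled by summed reads, and 25 and 17 with the GC-content offset. In wildtype the gene-length offset gave 14 and 12 in place of 15 and 8. On the scale of all genes it gave 3 higher and 68 lower in Stab1-/- liver in place of 9 and 49. Directions turned for Rpl7l1 in wildtype (-0.35 with library totals, -0.36 and -0.35 with limma), and with the gene-length offset in Stab1-/- liver for Rpl34 (-0.18) and, relative to the family, Rpsa (0.0345) and Rps15a (0.42). The causes were not tested. Depth limits Rpl3l, Rpl10l, Rpl39l and Rps27, which had at most 13 reads in a library.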
